A study of Mus musculus with 3 samples.

Results

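Glycolysis and hypoxia response genes were followed in macrophages and dendritic cells (DCs) sorted from mouse hearts, as a set of 35 genes among the 27998 genes counted. The members were chosen by symbol, with no measured value in the rule but with earlier results of these data known. All 35 were found in the gene tables of the 3 libraries. They comprise 16 core enzymes from hexokinase to lactate dehydrogenase, 3 glucose transporters, 3 regulators of glycolytic flux, 2 lactate transporters, 10 genes of the hypoxia response and the cytokine gene Mif. The transporter gene Slc2a1 and the hypoxia genes Bnip3, Egln3, Ankrd37 and Ero1l were also summed as 5 Hif targets, that is genes induced by the hypoxia-inducible factors.

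The first library held macrophages taken 11 days after myocardial infarction from Cx3cr1CreER-YFP/+:R26Td/+ mice. The second held steady-state macrophages from uninjured mice of the same genotype, in which one Cx3cr1 allele carries CreER and YFP and a Rosa26 allele carries a Cre-dependent tdTomato. The third held macrophages and DCs from uninjured wild-type hearts. All mice were C57BL/6 and 8 to 12 weeks old, and the transcription inhibitor flavopiridol was present during digestion of all hearts. The macrophage gate took live cells with CD45, CD64 and CD11b on their surface, and the DC gate took CD64- cells with CD11c and intermediate to high MHC class II. Each group was 1 library and the number of hearts in it is not stated in the labels, so differences between hearts were not measured and no p-value is given. Infarction and library cannot be told apart between day 11 and steady state, and the third library differs from the others in genotype and gate as well.

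Glycolysis splits glucose to pyruvate in the cytosol, and lactate dehydrogenase turns pyruvate into lactate, which leaves the cell through monocarboxylate transporters. When oxygen is low, prolyl hydroxylases of the Egln family no longer mark Hif-1α for destruction, and Hif-1 binds the motifs ACGTG and GCGTG near genes for glucose uptake, glycolysis, mitophagy and blood vessel growth. Macrophages of injured or infected tissue are known to take up more glucose and to stabilise Hif-1α also when oxygen is not low. Arg1, the arginase used here as a status gene, is known as a gene of repair macrophages and of myeloid cells in hypoxic tissue.

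After filters on genes, mitochondrial RNA and doublets, 4367 macrophages remained from day 11, 1696 from steady state and 1008 from the macrophage and DC library, with 734 DC-like cells in the last. Their median depths were 8105, 10656.5, 5516 and 9952 UMIs, and pairs of libraries shared 7 to 11 cell barcodes. The complement gene C1qa, a macrophage marker, stood at 6639 CPM (UMIs scaled to a total of 1000000) in day 11 macrophages, 7217 CPM at steady state and 3891 CPM in the macrophage and DC library, against 81.8 CPM in the DC-like cells of the last. Flt3, a DC marker, stood at 97.7 CPM in those DC-like cells and at 5.78 CPM in the macrophages beside them. Monocyte-like cells, which lie in the CD64+ gate, were counted with the macrophages, as were the unnamed clusters 1, 2, 4, 5, 6, 11 and 14. Cluster 14 held 22 cells whose leading genes include Nos2 and the endothelial genes Podxl, Sox17 and Sox18. Cluster 6, whose top 10 genes include 1 DC marker, gave 351 of the 1008 macrophages sorted beside DCs. Contrasts with that group include these cells unless stated. Values are CPM summed over the cells of a group, from UMIs at transcript 3′ ends that are not scaled by length, and 95% intervals cover counting error only. A member is counted as higher or lower when its ratio was at least 1.5-fold and its level at least 20 CPM in either group.

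Arg1-positive macrophages of day 11 differed from Arg1-negative ones in most of the pathway. The 280 cells with at least 2 Arg1 UMIs, 6.41% (5.70 to 7.18) of the day 11 macrophages, carried the 16 core enzymes at 5619 CPM, against 3099 CPM in the 3808 cells with none (ratio 1.81, 1.79 to 1.84). The 5 Hif targets stood at 131 CPM in Arg1-positive cells and 61.4 CPM in Arg1-negative cells (ratio 2.13, 1.94 to 2.35). Of 25 members that reached 20 CPM, 17 were higher in Arg1-positive cells and 0 lower, against 4.39% and 5.09% of 5172 genes. The members' median log2 ratio was 0.92, against -0.00 over all those genes. Slc2a1, Slc2a6, Ankrd37 and Ero1l reached 20 CPM in Arg1-positive cells only, so they could be counted as higher but not as lower, and the count and the median are descriptions. The other libraries held too few such cells to compare, with 3 at steady state and 1 among macrophages sorted beside DCs.

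Glucose uptake genes and the enzymes of the lower pathway were among the higher members. Slc2a1, the transporter GLUT1, had 39.5 CPM in Arg1-positive and 13.3 CPM in Arg1-negative macrophages (ratio 2.98, 2.47 to 3.57). Slc2a6, another transporter of this family, had 22.8 CPM in Arg1-positive and 8.65 CPM in Arg1-negative cells (2.64, 2.07 to 3.35). Among the enzymes the largest ratio was that of Pgk1, which makes the first ATP of the pathway, with 97.2 CPM in Arg1-positive and 38.04 CPM in Arg1-negative cells (2.56, 2.28 to 2.86). Pgam1, Aldoa, Ldha, Pkm, Gapdh, Eno1, Pfkl and Tpi1 had ratios between 1.75 and 2.03. Gapdh, the glyceraldehyde 3-phosphate dehydrogenase gene, had 1547 CPM in Arg1-positive and 812 CPM in Arg1-negative cells (1.91, 1.85 to 1.96), and Ldha, which makes lactate, had 565 and 293 CPM in the same order (1.93, 1.84 to 2.02). Eno1 is uncertain, since its near-identical copy Eno1b could share reads with it.

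The hexokinases Hk1 and Hk2 and the phosphoglucose isomerase Gpi1, which open the pathway, did not reach 1.5-fold, and Hk3 stayed below 20 CPM in both groups. Hk2 had 56.2 CPM in Arg1-positive and 38.5 CPM in Arg1-negative cells (1.46, 1.26 to 1.68), and Hk1 had 18.9 and 20.2 CPM in the same order (0.935, 0.728 to 1.18). Gpi1 had 302 CPM in Arg1-positive and 280.3 CPM in Arg1-negative cells (1.08, 1.01 to 1.14). Of the isozymes of phosphofructokinase, the platelet type Pfkp had a ratio of 1.20 (1.02 to 1.41) and the liver type Pfkl one of 1.84 (1.58 to 2.14). The bifunctional enzymes that set the level of fructose 2,6-bisphosphate, an activator of phosphofructokinase, stood at 1.02 (0.814 to 1.26) for Pfkfb3 and 0.692 (0.554 to 0.854) for Pfkfb4.

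Slc16a3, 4 of the 10 hypoxia genes and Mif were higher as well. Slc16a3, the lactate exporter MCT4, had 79.6 CPM in Arg1-positive and 26.8 CPM in Arg1-negative cells (2.97, 2.60 to 3.37). Hif1a, which encodes Hif-1α, had the largest ratio of the counted members, with 130.1 CPM in Arg1-positive and 42.5 CPM in Arg1-negative cells (3.06, 2.77 to 3.39). Of the Hif targets, Ankrd37 had a ratio of 2.80 (2.17 to 3.59), Ero1l, an oxidase of the endoplasmic reticulum, 1.75 (1.43 to 2.14), and Bnip3, a mitophagy receptor, 1.71 (1.44 to 2.03). Egln3 stayed below 20 CPM in both groups, with 7 UMIs in Arg1-positive and 29 in Arg1-negative cells. Bnip3l, the close relative of Bnip3, had 116 CPM in Arg1-positive and 119.7 CPM in Arg1-negative cells (0.968, 0.878 to 1.07), and P4ha1, a collagen prolyl hydroxylase, had a ratio of 1.24 (1.09 to 1.42). Mif, a cytokine gene known to respond to Hif-1, had 451 CPM in Arg1-positive and 173 CPM in Arg1-negative cells (2.61, 2.47 to 2.75).

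**Figure D1:**
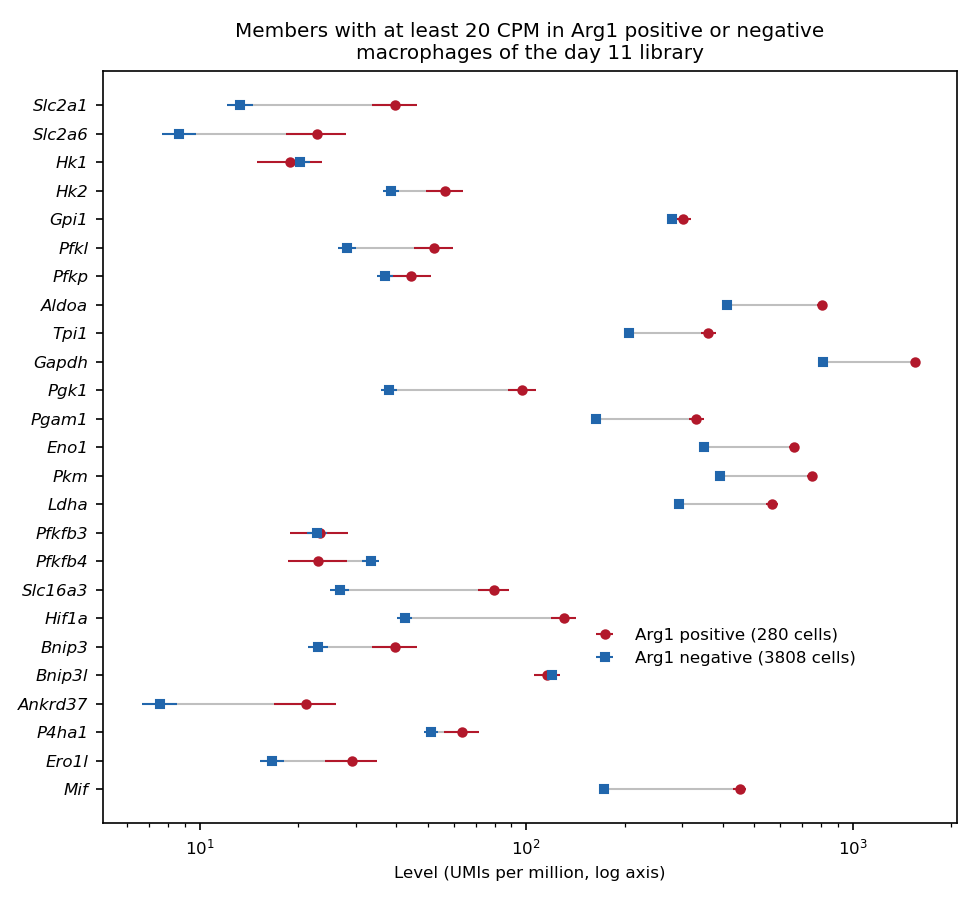
Level of members in CPM, on a log axis, in Arg1-positive (280 cells) and Arg1-negative (3808 cells) macrophages of the day 11 library; bars are 95% Poisson intervals of the UMI counts. The Arg1-positive points lie to the right for most members, as for Slc2a1 (39.5 against 13.3 CPM) and Hif1a (130.1 against 42.5 CPM), while those of Gpi1 and Bnip3l lie close together and Pfkfb4 lies to the left.

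Promoters are shown for 4 members among those with the largest ratios, and for Tpi1 and Gpi1, whose windows hold neither Hif motif. RefSeq promoters of build GRCm38.p6, 250 bases before to 50 after the start, were found for 31 of the 35 members, not for Slc2a3, Bnip3l, Ero1l and Ndrg1. Each is printed 5′ to 3′ on its gene's strand, and capitals mark ACGTG and GCGTG on either strand, where a match on the opposite strand reads CACGT or CACGC and matches can overlap. The windows are chr4:119108495-119108794 on the plus strand for Slc2a1, chrX:106186850-106187149 on the plus strand for Pgk1, chr11:120948817-120949116 on the plus strand for Slc16a3, chr8:45999801-46000100 on the minus strand for Ankrd37, chr6:124814109-124814408 on the minus strand for Tpi1 and chr7:34230287-34230586 on the minus strand for Gpi1.
Slc2a1 promoter: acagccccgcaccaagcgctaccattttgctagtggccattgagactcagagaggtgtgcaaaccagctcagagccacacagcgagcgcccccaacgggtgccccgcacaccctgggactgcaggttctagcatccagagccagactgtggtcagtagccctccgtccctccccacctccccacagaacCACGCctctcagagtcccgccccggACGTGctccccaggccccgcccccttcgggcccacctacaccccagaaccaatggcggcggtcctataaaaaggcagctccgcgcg
Pgk1 promoter: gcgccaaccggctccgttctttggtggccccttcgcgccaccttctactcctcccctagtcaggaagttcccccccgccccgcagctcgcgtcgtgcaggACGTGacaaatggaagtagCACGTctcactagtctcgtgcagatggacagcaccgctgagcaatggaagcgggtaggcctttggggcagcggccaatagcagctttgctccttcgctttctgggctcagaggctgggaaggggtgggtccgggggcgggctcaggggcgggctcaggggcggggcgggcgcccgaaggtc
Slc16a3 promoter: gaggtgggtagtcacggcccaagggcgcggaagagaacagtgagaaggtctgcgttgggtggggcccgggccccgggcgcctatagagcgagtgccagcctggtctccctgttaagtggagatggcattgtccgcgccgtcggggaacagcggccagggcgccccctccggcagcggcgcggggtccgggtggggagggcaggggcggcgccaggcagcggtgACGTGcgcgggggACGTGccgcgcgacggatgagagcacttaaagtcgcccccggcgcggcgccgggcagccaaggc
Ankrd37 promoter: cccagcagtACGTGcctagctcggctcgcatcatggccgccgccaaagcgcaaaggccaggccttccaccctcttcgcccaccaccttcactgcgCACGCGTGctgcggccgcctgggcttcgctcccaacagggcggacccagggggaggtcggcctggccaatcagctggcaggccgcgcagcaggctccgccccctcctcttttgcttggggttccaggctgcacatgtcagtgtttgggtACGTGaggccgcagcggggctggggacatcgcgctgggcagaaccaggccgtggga
Tpi1 promoter: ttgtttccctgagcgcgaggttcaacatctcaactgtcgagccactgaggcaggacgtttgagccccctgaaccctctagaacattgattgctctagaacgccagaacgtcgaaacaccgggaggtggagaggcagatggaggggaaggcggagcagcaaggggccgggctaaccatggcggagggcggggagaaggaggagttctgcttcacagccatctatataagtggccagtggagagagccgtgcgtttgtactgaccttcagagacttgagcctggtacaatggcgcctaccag
Gpi1 promoter: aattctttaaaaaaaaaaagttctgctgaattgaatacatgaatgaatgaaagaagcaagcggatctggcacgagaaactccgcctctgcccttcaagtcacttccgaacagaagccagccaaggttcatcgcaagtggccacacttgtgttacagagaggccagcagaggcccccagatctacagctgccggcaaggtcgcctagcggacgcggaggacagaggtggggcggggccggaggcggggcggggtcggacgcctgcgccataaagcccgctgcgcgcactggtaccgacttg
Of the 31 members, 29 (93.5%) had a promoter with at least 1 match, against 46.7% of 27025 genes. The members were chosen as glycolysis and hypoxia genes, so that contrast is a description. A match was held by 15 of 16 members higher in Arg1-positive cells (93.8%) and by 14 of 15 other members (93.3%). The members without a match were Tpi1, with 361 CPM in Arg1-positive and 206 CPM in Arg1-negative cells (1.75, 1.65 to 1.85), and Gpi1, as given above.

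The levels also followed the number of Arg1 UMIs in a cell. Cells with 0, 1, 2 to 4, 5 to 19 and 20 or more Arg1 UMIs numbered 3808, 279, 122, 111 and 47 and carried core enzymes at 3099, 3614, 3918, 5838 and 8767 CPM. The Hif targets in the same bins stood at 61.4, 74.01, 83.5, 125 and 247 CPM. Hif1a stood at 42.5, 63.3, 105, 122 and 199.9 CPM and Slc16a3 at 26.8, 36.4, 44.5, 81.2 and 151 CPM, each higher in every bin than in the one before. Slc2a1 stood at 13.3, 21.3, 18.3, 38.5 and 86.97 CPM, lower in the third bin than in the second. Median depth moved with the bins too, at 7772.5, 9984, 12156, 13800 and 16023 UMIs, as did the share of cells in cluster 7, which has monocyte genes among its leading genes, at 5.17, 10.8, 27.9, 50.5 and 63.8%. Their part in the result was not tested. After each cell was thinned to 3000 UMIs, Arg1-positive cells held a median of 15 core enzyme UMIs (quartiles 9 and 23), against 8 (6 and 11) in the 3731 Arg1-negative cells deep enough. Unthinned, core enzymes took 0.562% of UMIs in Arg1-positive and 0.310% in Arg1-negative cells.

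**Figure D2:**
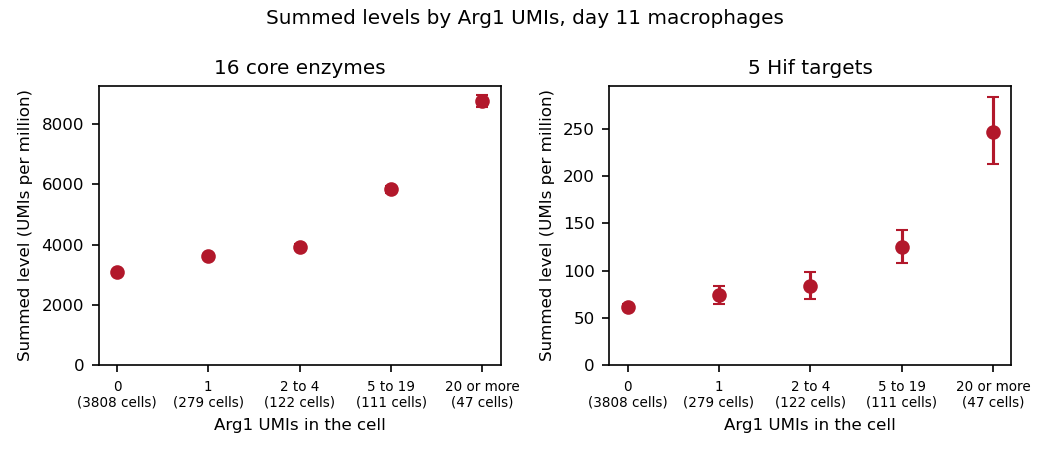
Summed level of the 16 core enzymes and of the 5 Hif targets in CPM, in day 11 macrophages grouped by the number of Arg1 UMIs in the cell; bars are 95% Poisson intervals. Cells with 0 Arg1 UMIs stand at 3099 and 61.4 CPM and cells with 20 or more at 8767 and 247 CPM.

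Other measures differed between the Arg1 groups. Cells with at least 3 of 30 cell cycle markers made up 42.1% of Arg1-positive and 25.03% of Arg1-negative cells. Without such cells 17 members were higher and 1 lower, with no share over all genes given at that setting. Monocyte markers summed to 1889 CPM in Arg1-positive and 868 CPM in Arg1-negative cells, with 12 of 12 detected in both. Endothelial markers summed to 153 CPM in Arg1-positive cells (14 of 15 detected, Tie1 at 0) and 103 CPM in Arg1-negative cells (15 of 15). Neutrophil markers summed to 70.5 CPM in Arg1-positive cells (6 of 8 detected) and 44.2 CPM in Arg1-negative cells (8 of 8). The part of cell cycle and monocyte identity in the result was not tested. In the day 11 library 0 of 75 DC-like cells were Arg1-positive at a median of 9184 UMIs, which allows a share of up to 4% (3 counts of the total). Of its lymphoid cells 2 of 56 were, or 3.57% (0.435 to 12.3) at a median of 15571 UMIs, an interval that includes the 6.41% of macrophages.

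Other hypoxia genes, from a list of 30, went both ways. Of 14 that reached 20 CPM, 4 were higher and 2 lower in Arg1-positive cells. Vegfa, the main endothelial growth factor gene, had 22.1 CPM in Arg1-positive and 1.92 CPM in Arg1-negative cells (11.5, 8.28 to 16.2). Bhlhe40, a transcriptional repressor gene, had a ratio of 4.52 (3.52 to 5.79) and Hilpda, a lipid droplet gene, 2.71 (2.18 to 3.35). Higd1a, which encodes a mitochondrial protein, had a ratio of 1.83 (1.66 to 2.002). Txnip, a negative regulator of glucose uptake, was lower, with 134 CPM in Arg1-positive and 286 CPM in Arg1-negative cells (0.469, 0.429 to 0.511), as was Cited2, whose product competes with Hif-1α for a coactivator (0.646, 0.584 to 0.714). Of 7 further glycolysis and pyruvate genes that reached 20 CPM, 1 was higher, the lactate dehydrogenase gene Ldhb (1.75, 1.39 to 2.17). Of 7 pentose phosphate genes 0 were higher and 0 lower.

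Of the 280 Arg1-positive cells, 120 lay in cluster 7 and 130 in cluster 2, both made without the 35 members. Cluster 7 is monocyte-like by its leading genes, among them Ace, Chil3, Hp, Plac8 and Ly6c2, and cluster 2, led by Ccl8, C4b and Fn1, was left unnamed. Arg1 itself is among the 10 leading genes of both. Cluster 7 of day 11, 347 cells, carried core enzymes at 6269 CPM, against 3068 CPM in the 4020 other macrophages. Of 23 members, 15 were higher in cluster 7 and 0 lower, against 6.33% and 8.09% of 5169 genes. Slc2a1 had 49.8 CPM in cluster 7 and 12.8 CPM in the other macrophages (3.89, 3.28 to 4.59), ahead of Slc16a3 (3.63, 3.22 to 4.09), Hif1a (3.32, 3.02 to 3.66) and Pgk1 (3.18, 2.86 to 3.53).

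The Arg1 groups were also compared within each cluster, and differences between the clusters' ratios were not tested. Within cluster 7, core enzymes stood at 8035 CPM in 120 Arg1-positive and 4827 CPM in 197 Arg1-negative cells. There 14 of 25 members were higher and 2 lower, against 7.05% and 8.63% of 5050 genes. Within cluster 2, core enzymes stood at 3772 CPM in 130 Arg1-positive and 2646 CPM in 605 Arg1-negative cells. There 10 of 24 members were higher and 0 lower, against 2.77% and 3.41% of 5271 genes. Aldoa, Gapdh, Slc16a3, Hif1a and Mif were higher with Arg1 in each cluster.

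Several members were counted in 1 of the clusters. Pgk1 had 169 CPM in Arg1-positive and 81.2 CPM in Arg1-negative cells of cluster 7 (2.08, 1.71 to 2.54), and a ratio of 1.30 (0.992 to 1.70) in cluster 2. Tpi1 had a ratio of 2.01 (1.81 to 2.23) in cluster 7 and 1.15 (1.03 to 1.30) in cluster 2. Bnip3 had 62.9 CPM in Arg1-positive and 27.7 CPM in Arg1-negative cells of cluster 7 (2.27, 1.63 to 3.19), and 23.1 and 22.3 CPM in cluster 2 (1.04, 0.724 to 1.46). Hk2 had a ratio of 1.01 (0.727 to 1.39) in cluster 7 and 1.66 (1.35 to 2.05) in cluster 2. Slc2a6 had 0.651 (0.370 to 1.12) in cluster 7, an interval that includes 1, and 2.73 (1.88 to 3.96) in cluster 2. Ndrg1, a hypoxia-induced gene, had 21.2 CPM in Arg1-positive and 14.1 CPM in Arg1-negative cells of cluster 7 (interval of the ratio 0.891 to 2.54), counted just past the threshold with an interval that includes 1. Arg1-positive cells were deeper in each cluster, with medians of 13017.5 against 9459 UMIs in cluster 7 and 13776.5 against 9155 UMIs in cluster 2.

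Of the 280 Arg1-positive and 94 Ly6c2-positive day 11 macrophages, 10 were positive for both, beside 6.41% Arg1-positive cells among all day 11 macrophages. In cluster 7, the 97 cells positive for Arg1 and without Ly6c2 carried core enzymes at 8329 CPM, against 4599 CPM in the 52 cells positive for Ly6c2 and without Arg1. Of 25 members, 13 were higher in the Arg1 cells and 3 lower, against 13.1% and 16.7% of 5197 genes. Bnip3 had 70.9 CPM in the Arg1 cells and 18.00 CPM in the Ly6c2 cells (3.94, 2.10 to 8.16), from 93 and 11 UMIs. Mif had a ratio of 3.18 (2.66 to 3.82) and Slc2a1 one of 2.72 (1.64 to 4.76). Hk2 was lower, with 36.6 CPM in the Arg1 cells and 63.8 CPM in the Ly6c2 cells (0.574, 0.368 to 0.899), and the intervals of the other lower members, Slc2a6 and Pfkfb4, include 1. The 123 cells of cluster 7 with neither transcript carried core enzymes at 5029 CPM, against 3068 CPM in the macrophages outside it.

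Ly6c2 is known as a gene of monocytes newly arrived from blood. Its positive share of day 11 macrophages, 2.15% (1.74 to 2.63), was not above the 4% (0.833 to 11.2, 3 of 75 cells) of DC-like cells there, at median depths of 8105 and 9184 UMIs, so the share itself is not read as expression. Cluster 7 held 68 of the 94 positive cells. These 94 cells carried core enzymes at 4935 CPM, against 3314 CPM in 4149 negative cells (1.49, 1.45 to 1.53). Of 24 members, 10 were higher and 0 lower, against 8.78% and 8.63% of 5282 genes, with a median log2 ratio of 0.50 against 0.03 over all.

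Slc16a3 had 83.96 CPM in Ly6c2-positive and 30.2 CPM in Ly6c2-negative cells (2.78, 2.23 to 3.42), and Slc2a6 had 23.6 and 9.95 CPM in the same order (2.37, 1.54 to 3.51). Hif1a had a ratio of 2.19 (1.81 to 2.63), Pfkl 2.19 (1.71 to 2.78) and Pkm, the last ATP-making step, 1.91 (1.78 to 2.04). Slc2a1, Pgk1, Hk2, Eno1 and Tpi1 were the other higher members, between 1.54 and 1.91. Bnip3 had 26.2 CPM in Ly6c2-positive and 24.8 CPM in Ly6c2-negative cells (1.06, 0.710 to 1.52), and Gapdh had a ratio of 1.40 (1.32 to 1.47). Without cells marked by cell cycle genes 16 members were higher and 1 lower, in 63 Ly6c2-positive and 3058 Ly6c2-negative cells. The share over all genes is not given for these fewer cells, so the rise is not read as a result about the members. Monocyte markers summed to 6630 CPM in Ly6c2-positive and 778 CPM in Ly6c2-negative cells. Ly6c2 itself is on that list and set the groups, so part of this contrast was fixed in advance. Median depth was 10587.5 and 8017 UMIs in the same order. The part of monocyte identity and depth in the result was not tested.

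Gpnmb is known as a gene of lipid-handling macrophages, and the summed core enzymes were close between its groups. The 775 Gpnmb-positive cells, 17.8% (16.6 to 18.9) of day 11 macrophages, carried core enzymes at 3498 CPM, against 3376 CPM in 3045 negative cells (1.04, 1.02 to 1.05). The positive share was 1.33% (1 of 75) in DC-like cells and 14.3% (8 of 56, interval 6.38 to 26.2) in the deeper lymphoid cells. Of 24 members, 2 were higher and 1 lower, against 3.41% and 6.73% of 5126 genes. The split was 1 and 1 without mitochondrial and ribosomal genes in the total. Ndrg1 had 36.3 CPM in Gpnmb-positive and 12.7 CPM in Gpnmb-negative cells (2.86, 2.45 to 3.34). Aldoa, an aldolase gene, had 615 CPM in Gpnmb-positive and 408 CPM in Gpnmb-negative cells (1.51, 1.46 to 1.56), at the threshold. Pfkfb4 was lower, with 20.6 CPM in Gpnmb-positive and 35.8 CPM in Gpnmb-negative cells (0.577, 0.490 to 0.676). Hif1a had a ratio of 0.928 (0.832 to 1.03) and Slc16a3 one of 0.838 (0.728 to 0.962).

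Timd4 is known as a gene of long-lived resident macrophages. At steady state 603 cells, 35.5% (33.3 to 37.9), were positive, against 17.5% (7 of 40) of lymphoid cells. They carried core enzymes at 3005 CPM, against 3120.1 CPM in 757 negative cells, and of 21 members 0 were higher and 0 lower, against 2.54% and 1.98% of 5359 genes. Pfkfb4 (0.700, 0.602 to 0.813) and Pfkp (0.706, 0.594 to 0.839) had ratios below 1 that stopped short of the threshold.

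In the day 11 library 132 cells, 3.02% (2.54 to 3.57), were Timd4-positive, not above the 3.57% (2 of 56) of lymphoid cells. Their core enzymes stood at 3206 CPM, against 3427 CPM in 4047 negative cells. Of 22 members, 2 were higher and 2 lower, against 8.38% and 4.05% of 5356 genes. The split became 1 and 5 without mitochondrial and ribosomal genes, and 1 and 4 with the median of all genes set to 0. Hk3, a hexokinase of myeloid cells, had 32.7 CPM in Timd4-positive and 18.8 CPM in Timd4-negative cells (1.74, 1.30 to 2.29), and Hk2 had 60.1 and 39.9 CPM in the same order (1.51, 1.22 to 1.84). Slc16a3 had 19.6 CPM in Timd4-positive and 33.7 CPM in Timd4-negative cells (0.582, 0.399 to 0.822), and Pfkp had 23.2 and 38.9 CPM (0.596, 0.422 to 0.819).

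In the macrophage and DC library 61 macrophages were Timd4-positive, 6.05%, against 5.31% of its DC-like cells. Their core enzymes stood at 2654 CPM, against 4177 CPM in 866 negative cells. Of 21 members, 1 was higher and 11 lower, against 25.7% and 11% of 5011 genes. Gapdh had 790.1 CPM in Timd4-positive and 1388 CPM in Timd4-negative cells (0.569, 0.507 to 0.637). Slc16a3 had 0 UMIs in Timd4-positive cells and 37.8 CPM in Timd4-negative cells, at least 5.06-fold lower with 3 UMIs over the group as the floor. Hif1a had 6 UMIs in the positive cells (0.395, 0.144 to 0.875). Hk3 was the higher member (2.45, 1.21 to 4.56). By cluster, core enzymes of this library's macrophages stood at 2601 CPM in cluster 0 and 2607 CPM in cluster 1. They stood at 4929 CPM in the 351 cells of cluster 6, 5916 CPM in cluster 7 and 4429 CPM in cluster 9. The part of cluster membership in the Timd4 ratios was not tested.

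**Figure D3:**
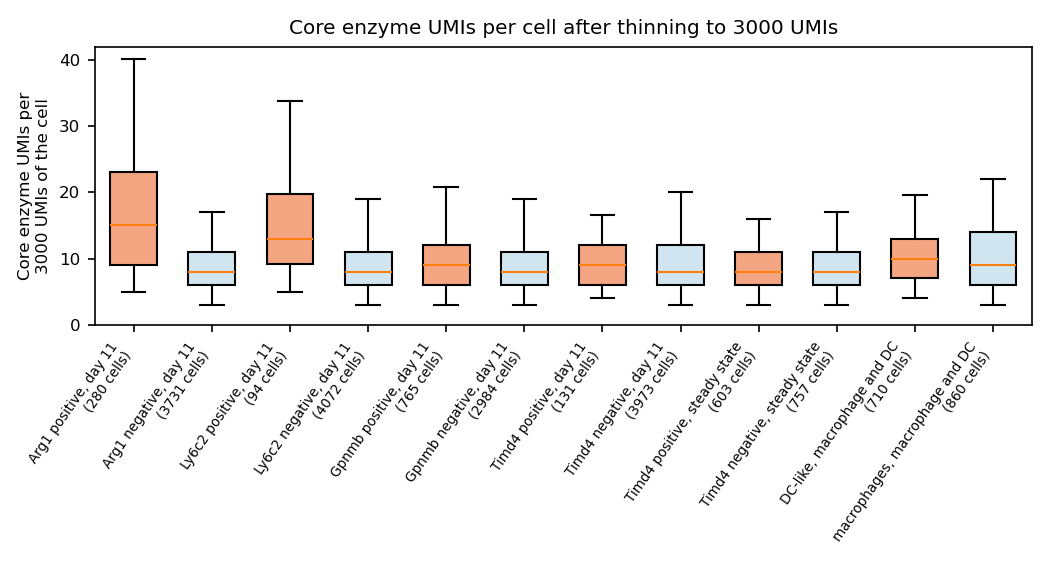
Core enzyme UMIs per cell after each cell was thinned to 3000 UMIs, for positive beside negative cells of each status gene and for DC-like cells beside macrophages; the line is the median, the box the quartiles and the whiskers the 5th and 95th percentiles. Medians are 15 in Arg1-positive and 8 in Arg1-negative cells, 13 in Ly6c2-positive and 8 in Ly6c2-negative cells, and 10 in DC-like cells and 9 in macrophages.

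Between the libraries as wholes fewer members differed. Core enzymes stood at 3392 CPM in day 11 and 3053 CPM in steady-state macrophages (1.11, 1.10 to 1.12). Of 22 members, 2 were higher at day 11 and 0 lower, against 3.89% and 6.54% of 5325 genes, with a median log2 ratio of 0.19 against -0.06 over all. Hif1a had 52.9 CPM at day 11 and 28.3 CPM at steady state (1.87, 1.71 to 2.04), and Slc16a3 had 32.8 and 17.8 CPM (1.84, 1.64 to 2.06). Among Arg1-negative cells the ratio was 1.53 (1.39 to 1.68) for Hif1a and 1.53 (1.35 to 1.72) for Slc16a3. In cells with no UMI of the 4 status genes the ratios were 1.55 (1.31 to 1.84) and 1.52 (1.24 to 1.87). With cells weighted equally the split was 2 higher and 1 lower.

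The ratios of Hif1a and Slc16a3 within clusters 0 and 1 had intervals that include 1. Hif1a had 30.4 CPM in day 11 and 26.6 CPM in steady-state cells of cluster 0 (1.14, 0.894 to 1.45), and 31.5 and 28.4 CPM in those of cluster 1 (1.11, 0.846 to 1.45). Slc16a3 had a ratio of 1.19 (0.851 to 1.64) in cluster 0 and 0.910 (0.639 to 1.30) in cluster 1. Pgk1 had a ratio of 0.548 (0.428 to 0.692) in cluster 0 and 0.532 (0.411 to 0.685) in cluster 1. In clusters 6, 9 and 11 it was 0.397 (0.243 to 0.643), 0.793 (0.643 to 0.978) and 0.743 (0.395 to 1.52). In cluster 7 it was 1.39 (1.15 to 1.70). The uninjured libraries differed in Pgk1 as well, and day 11 lay between them in clusters 0 and 1. In cluster 0 it had 51.0 CPM at steady state, 27.9 CPM at day 11 and 16.5 CPM in the macrophage and DC library. In cluster 1 it had 46.3, 24.6 and 18.3 CPM in the same order.

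Several members under 20 CPM in both libraries were further apart. Ndrg1 had 18.3 CPM at day 11 and 3.85 CPM at steady state (4.75, 3.79 to 6.01), and Slc2a1 had 16.5 and 8.29 CPM (1.996, 1.69 to 2.36). Egln3, the oxygen sensor gene known for its induction by Hif, had 42 UMIs at day 11 and 7 at steady state, or 1.03 and 0.317 CPM. Adm, which encodes adrenomedullin, had 0.443 CPM at day 11 and 2.08 CPM at steady state, and 0 UMIs in DC-like cells, with an upper bound of 0.491 CPM. Other rarely detected members were Slc2a3 (2.51 and 3.44 CPM), Pfkm (3.56 and 4.62 CPM) and Slc16a1 (3.42 and 1.72 CPM), each at day 11 and steady state.

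Abundant enzymes differed in sign. Aldoa had 457 CPM at day 11 and 323 CPM at steady state (1.41, 1.38 to 1.45), Pgam1 had 182 and 131 CPM (1.39, 1.33 to 1.45), and Ldha had 325 and 252 CPM (1.29, 1.25 to 1.33). Pgk1, by contrast, had 45.01 CPM at day 11 and 58.1 CPM at steady state (0.774, 0.720 to 0.832), and Eno1 had 385 and 439 CPM (0.876, 0.854 to 0.899). In macrophages of the macrophage and DC library Pgk1 had 40.6 CPM and Eno1 had 505 CPM. Cells marked by cell cycle genes made up 26.6% at day 11 and 59.3% at steady state. The mark, at least 3 of 30 markers, can depend on depth, and median depths were 8105 and 10656.5 UMIs. Cluster 9, led by cell cycle genes such as Plk1 and Prc1, held 189 of 4367 and 141 of 1696 macrophages. The marked shares are therefore not read as shares of dividing cells. Erythroid and platelet markers, a list with haemoglobin genes and Pf4, summed to 1676 CPM at day 11 (7 of 8 detected). At steady state they summed to 4540 CPM (8 of 8). The sum was not split by gene, so the cells it came from are not read from it. The part of cell cycle and of these markers in the enzyme ratios was not tested.

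Against macrophages of the macrophage and DC library, 1 of 21 members was higher at day 11 and 2 lower, against 18.2% and 5.42% of 5090 genes. Pfkfb3 had 23.1 CPM at day 11 and 9.88 CPM in that library (2.34, 1.82 to 3.06). Slc2a6 had 10.3 and 23.3 CPM in the same order (0.444, 0.368 to 0.538), and Hk2 had 41.1 and 70.1 CPM (0.587, 0.529 to 0.652). Hif1a had a ratio of 1.46 (1.27 to 1.67) and Slc16a3 one of 0.960 (0.833 to 1.11). The split of 1 higher and 2 lower became 1 and 4 with the median of all genes set to 0, and 1 and 1 with cells weighted equally. Without cluster 6 in both libraries, a setting chosen after seeing the data, it was 4 and 0, with log2 ratios of -0.53 for Slc2a6 and -0.58 for Hk2. The share over all genes is not given at that setting, so the 4 are not read as a result about the members. At the main setting 18.2% of all genes were higher. The median log2 ratio over all genes was 0.19 and over the members 0.02.

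Cluster 7 held unlike levels in the 3 libraries. Its core enzymes stood at 6269 CPM at day 11, 3373 CPM at steady state and 5916 CPM in the 36 cells of the macrophage and DC library. Within it, 14 of 24 members were higher at day 11 than at steady state and 1 lower, against 7.24% and 14.4% of 5320 genes. Hif1a had 142 CPM at day 11 and 40.6 CPM at steady state (3.51, 2.71 to 4.62), and Slc2a1 (3.14, 2.07 to 4.97), Pfkl (2.84, 1.95 to 4.28) and Pgam1 (2.54, 2.21 to 2.93) followed. Identity genes differed between these cells too, with C1qa at 3371 CPM at day 11 and 5093 CPM at steady state and Lyve1 at 16.8 and 295 CPM, and their part in the ratios was not tested. In cluster 0, led by Lyve1, Timd4 and Folr2, core enzymes stood at 2809.8 CPM at day 11 and 2947 CPM at steady state.

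**Figure D4:**
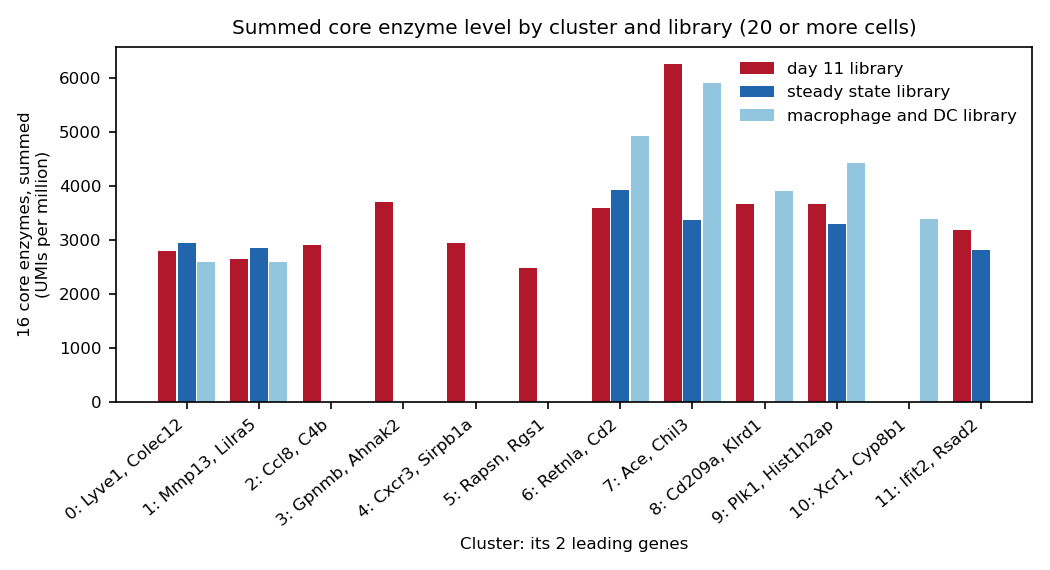
Summed level of the 16 core enzymes in CPM, on an axis from 0, for each cluster of macrophages or DC-like cells with at least 20 cells in a library, so that a missing bar means fewer cells. Cluster 7 stands highest at day 11 (6269 CPM) and in the macrophage and DC library (5916 CPM), and lower at steady state (3373 CPM); cluster 6 of the macrophage and DC library stands at 4929 CPM.

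The uninjured libraries differed from each other. Macrophages of the macrophage and DC library had core enzymes at 3979.7 CPM, against 3053 CPM in the steady-state macrophage library. Of 22 members, 7 were higher and 2 lower, against 4.32% and 24.2% of 5273 genes, with a median log2 ratio of 0.29 against -0.27 over all. Slc2a6 had 23.3 CPM in the macrophage and DC library and 7.47 CPM in the steady-state library (3.11, 2.48 to 3.90), and Gapdh had 1312 and 829 CPM in the same order (1.58, 1.54 to 1.62). Slc16a3 (1.92, 1.62 to 2.26), Pfkp, Mif, Pgam1 and Ldha were higher too, and Hk3 (0.498, 0.395 to 0.622) and Pfkfb4 (0.605, 0.508 to 0.716) lower. Cluster 6, unnamed and led by Retnla, Cd2, Lyz1 and Ear2, held 351 of the 1008 macrophages, against 35 of 1696 in the steady-state library. Without it, 0 of 21 members were higher and 2 lower, against 3.56% and 14.2% of 5288 genes.

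Within the macrophage and DC library, cluster 6 carried core enzymes at 4929 CPM, against 3216 CPM in the other 657 macrophages. Of 21 members, 14 were higher in cluster 6 and 2 lower, against 5.05% and 22.3% of 4770 genes. Ankrd37 had 26.9 CPM in cluster 6 and 8.50 CPM in the other macrophages (3.17, 2.07 to 4.97). Slc2a6 (2.28, 1.62 to 3.24), Slc16a3 (2.25, 1.70 to 2.999) and Pfkp (2.16, 1.73 to 2.69) were higher as well. Bnip3 was lower, with 12.96 CPM in cluster 6 and 22.2 CPM in the other macrophages (0.583, 0.386 to 0.868), and Hif1a had a ratio of 1.27 (0.981 to 1.66). Median depth was 7803 UMIs in cluster 6 and 4593 UMIs in the others, and monocyte markers summed to 2759 and 1308 CPM in the same order (12 and 12 of 12 detected). Their part in the result was not tested.

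The DC-like cells of the macrophage and DC library were set against its macrophages. Core enzymes stood at 3569 CPM in DC-like cells and 3979.7 CPM in macrophages (0.897, 0.882 to 0.912). Of 20 members, 2 were higher in DC-like cells and 4 lower, against 8.7% and 23.5% of 4622 genes, with a median log2 ratio of -0.21 against -0.15 over all. These shares lie near those of all genes. The split was 4 and 3 with cells weighted equally. Aldoc, the brain-type aldolase, had 34.7 CPM in DC-like cells and 7.30 CPM in macrophages (4.76, 3.49 to 6.62), while Aldoa had 312 and 419 CPM in the same order (0.745, 0.705 to 0.788). Pfkp had 89.01 CPM in DC-like cells and 54.9 CPM in macrophages (1.62, 1.43 to 1.85), with 62.1 CPM in cluster 8 and 108 CPM in cluster 10 of the DC-like cells. The lower members were Pfkfb4, with 6.25 CPM in DC-like cells and 24.5 CPM in macrophages (0.256, 0.181 to 0.356), Slc16a3 (0.335, 0.258 to 0.431), P4ha1 (0.421, 0.344 to 0.513) and Eno1 (0.657, 0.623 to 0.692). Of 11 other hypoxia genes, 2 were higher and 6 lower, and Txnip, one of the lower genes, had 44.6 CPM in DC-like cells and 181 CPM in macrophages.

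The 2 large DC-like clusters differed from each other in turn. Cluster 8, led by Cd209a, held 339 cells of that library, and cluster 10, led by Xcr1 and Clec9a, held 377. Of 20 members, 9 were higher in cluster 8 than in cluster 10 and 1 lower, against 16.4% and 12.7% of 4271 genes. Slc16a3 had 24.2 CPM in cluster 8 and 3.56 CPM in cluster 10 (6.79, 3.91 to 12.5), and Slc2a6 had 41.8 and 8.002 CPM in the same order (5.22, 3.57 to 7.80). Hk2 (2.43, 2.03 to 2.92), Eno1 (2.35, 2.17 to 2.55) and Slc2a1 (2.35, 1.59 to 3.50) were higher too. Pfkp was lower, with 62.1 CPM in cluster 8 and 108 CPM in cluster 10 (0.578, 0.484 to 0.687). Cells marked by cell cycle genes made up 23.6% of cluster 8 and 41.1% of cluster 10.

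**Figure D5:**
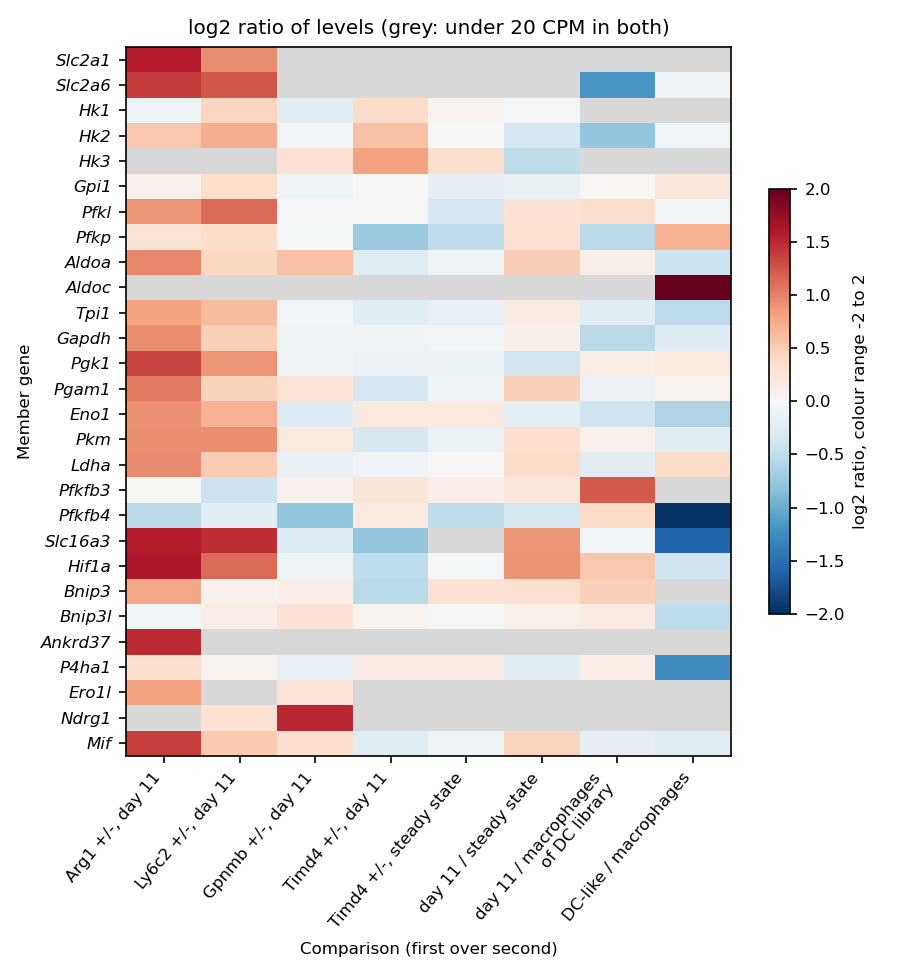
log2 ratio of the level of each member (rows) in the comparisons above (columns, first group over second), in colours from -2 to 2 with values beyond drawn at the end of the scale; grey marks members under 20 CPM in both groups. The column of Arg1 status shows higher levels for 17 members and that of Ly6c2 status for 10, while day 11 over steady state shows 2.

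The Hif targets were set against the core enzymes as UMIs of the 5 targets per 1000 UMIs of the 16 enzymes. The value was 20.5 (19.7 to 21.2) in day 11 macrophages and 16.9 (15.97 to 17.95) in steady-state macrophages. It was 15.4 (13.9 to 16.9) in DC-like cells and 16.5 (14.9 to 18.1) in macrophages of the macrophage and DC library. Arg1-positive cells of day 11 had 23.3 (21.4 to 25.4) and Arg1-negative cells 19.8 (18.98 to 20.7), so both sums were higher together and their proportion differed by less. Ly6c2-positive cells had 18.4 (15.1 to 22.3) and Ly6c2-negative cells 20.7 (19.9 to 21.5). Timd4-positive cells of day 11 had 13.9 (10.9 to 17.4) and Timd4-negative cells 20.7 (19.9 to 21.5). Across the bins of Arg1 UMIs the value was 19.8, 20.5, 21.3, 21.3 and 28.1, highest in cells with 20 or more. Cluster 5 of day 11, led by Rapsn, Rgs1 and Olfml3, had 25.2 beside a core level of 2496 CPM, the lowest of the day 11 macrophage clusters drawn.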

How the data were processed

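Single cells were captured with 10x Genomics 3′ v2 chemistry, per the labels' protocols, and the authors deposited UMI counts per gene and cell for each library. Per the submitters' processing notes, Cell Ranger and STAR were used with build mm10, with no version named in the sources used here. Multimapped reads could move counts between near-identical copies such as Eno1 and Eno1b.

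From the deposited counts, cells with at least 500 genes and at most 10% mitochondrial UMIs were kept, and the top Scrublet scores, 0.8% per 1000 barcodes, were removed as doublets. The number removed that way was set by the rate, since Scrublet's own threshold marked 0, 8 and 2 barcodes. Totals were 45177529, 23711707 and 14388327 UMIs in 4697, 1806 and 1780 barcodes of the day 11, steady-state and macrophage and DC libraries. Cells were clustered on 2000 variable genes without the members (30 principal components, 15 neighbours, Leiden resolution 1.0), and a cluster was named where at least 3 of its top 10 genes were markers. Status was positive from 2 UMIs and negative at 0, and cells with 1 UMI were left out.

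UMIs were summed per group, and ratios have exact conditional binomial 95% intervals, levels Poisson ones and shares of cells Clopper-Pearson ones. UMIs of 1 library are not replicates. The calling rule was tested on simulated Poisson counts from a pooled profile with 2-fold changes put in. These counts held no variation between hearts, libraries or cells, so the test does not cover it. All 35 members could be named, in the order of their roles, with values for those past the threshold, the core enzymes and the Hif targets, and other genes came from written lists. The members, lists and rules were chosen with earlier results of these data known. Alternatives covered scaling, minimum level, fold, doublets, cycling cells, thinning and status rules. Promoters were matched by symbol in RefSeq tables. Python 3.11.15, numpy 2.4.6, scipy 1.17.1, pandas 2.3.3, scanpy 1.11.5 and leidenalg 0.10.2 were used.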

Additional observations from a re-analysis of the deposited data

Results flagged for a closer look

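Tpi1, the triose phosphate isomerase gene, went opposite ways with Ly6c2 status in 2 libraries. At day 11 it had 337 CPM in 94 Ly6c2-positive and 218 CPM in 4149 Ly6c2-negative macrophages, a ratio of 1.54 (1.39 to 1.71). In the macrophage and DC library it had 145 CPM in 20 Ly6c2-positive and 258 CPM in 977 Ly6c2-negative macrophages, a ratio of 0.562 (0.351 to 0.854), from 22 UMIs in the positive cells. The difference between the libraries was not tested.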

How the results depend on the processing

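Of 478 recomputed ratios of single members, 410 stayed within their limits, 68 moved and none changed sign after having been counted. Between day 11 and steady state, 2 members became 4 without mitochondrial and ribosomal genes, 1 with a minimum of 50 CPM, 8 with no minimum and 0 at 2-fold. Between day 11 and the macrophage and DC library, 3 became 7 without mitochondrial and ribosomal genes, 5 with the median of all genes set to 0, 1 at 50 CPM, 11 with no minimum and 9 over all cells. For Arg1, 17 became 12 at 50 CPM, 22 with no minimum, 8 at 2-fold, 11 with 1 UMI as positive and 16 with status read after thinning. For Ly6c2, 10 became 8 at 50 CPM, 16 with no minimum, 4 at 2-fold and 17 without cycling cells. The same 10 became 15 with cells weighted equally, 5 with 1 UMI as positive and 7 with status read after thinning. For Gpnmb, 3 became 1 at 50 CPM, 7 with no minimum, 1 at 2-fold and 1 with 1 UMI as positive. For Timd4 at day 11, 4 became 1 at 50 CPM, 12 with no minimum, 0 at 2-fold and 1 with 1 UMI as positive. At steady state its 0 became 1 with cells weighted equally, 5 with no minimum and 2 without cycling cells. For DC-like cells, 6 became 2 at 50 CPM, 9 with no minimum and 4 at 2-fold. Apart from the settings that change the threshold or the minimum by construction, the cause was not tested. The ratio of Hif targets to core enzymes, 1.21 for day 11 over steady state, ranged from 1.19 to 1.27 over its alternatives. Alternatives chosen after seeing the data gave 17 members for Arg1 in Ly6c2-negative cells, 11 for Ly6c2 in Arg1-negative cells, 3 for Gpnmb in Arg1-negative cells, 3 for Timd4 at day 11 in cells negative for the other status genes, 2 for day 11 over steady state without the cluster led by Nos2 and endothelial genes, and 4, all higher, for day 11 over the macrophage and DC library without cluster 6. No paired analysis was possible because each group has 1 library, and leaving out a replicate was not possible either. The counts at these alternatives have no share over all genes beside them, so they describe the settings and are not results about the members. Members below 20 CPM are limited by depth.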
